A study of Homo sapiens with 2 samples.

Results

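The genes described here make up the machinery by which a cell shows peptides and stress signals to the immune system. They were chosen by name on the array: every gene whose symbol starts with HLA-, and B2M, TAP1, TAP2, TAPBP, TAPBPL, PSMB8, PSMB9, PSMB10, PSME1, PSME2, CIITA, CD74, MICA, MICB, ULBP1, ULBP2, ULBP3, RFX5, RFXAP and RFXANK. The rule found 44 genes of 30484 distinct gene names, measured by 86 probes in 131 spots. On at least 1 array, the scanner software marked a probe as well above background for 33 of these genes, and for the other 11 on neither.

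SAS is an established human cell line from a tongue squamous cell carcinoma. The eSAS population was derived from parental SAS cells by 5 rounds of picking out large spheroids, which are rounded multicellular aggregates, with a filter tool called Spheroid Catch, in order to enrich cells that form spheroids well. The labels name no engineered allele or added drug for either group, and both were grown in serum-containing medium. Total RNA of SAS and eSAS cells, 200 ng each, was hybridized to 1 single-colour Agilent array per group, both on 1 slide, so that a difference between the arrays, the cultures or the populations cannot be told apart, no test between the groups was possible, and eSAS stands for 1 selected population.

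In class I presentation, proteasomes cut cytosolic proteins, the TAP1 and TAP2 transporter carries the peptides into the endoplasmic reticulum, tapasin (TAPBP) helps to load them, and a heavy chain paired with beta-2 microglobulin (B2M) displays them to cytotoxic T cells. Interferon gamma raises most of these genes, and tumour cells often lose part of the pathway. Class II molecules display peptides from endosomes, are normally made by professional antigen-presenting cells under the control of CIITA, and need the invariant chain CD74. MICA, MICB and the ULBP proteins are class I-like ligands of the receptor NKG2D, through which NK cells and some T cells recognise stressed or transformed cells.

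The values are processed signals, a brightness corrected for background, and log2 ratios of eSAS to SAS after each array was divided by its 75th percentile of signal, 1242 in SAS and 1196 in eSAS. A probe well above background was at or above 12.8 in SAS and 15.2 in eSAS. The share of spots well above background was 69.4% in SAS and 67.5% in eSAS. The only error that could be measured was that between spots of the same probe on the same array: over 211 probes with replicate spots the pooled SD of the log2 ratio was 0.081. Each SD given below for a probe is its own where it had replicate spots, and otherwise that of replicate spots at about the same brightness. It covers neither culture nor labelling. The 26659 probes that both arrays measured well above background had a median log2 ratio of −0.0039, with an SD of 0.36. As a check of the cell type, all 11 of the squamous epithelial markers found on the array had a probe well above background, with a summed signal of 106670 in SAS and 74576 in eSAS. KRT14, a keratin of basal squamous cells, was 95.4-fold lower in eSAS on the first probe and 2.35-fold lower on the other. Of the list's 14 probes well above background, 6 were at least 1.5-fold lower in eSAS, beside 6.12% of 28439 probes on the array. The other direction was seen at 1.5-fold for 2 probes, beside 4.43%, both of DSC3, which were 1.62-fold and 1.68-fold higher.

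Most members differed little between SAS and eSAS cells, as did most probes on the array. Of the 49 member probes well above background on both arrays, 47 differed by less than 1.5-fold, the lowest was −0.55 (RFXAP), the highest was 0.67 (MICA) and the median was −0.07. The SD over these probes was 0.25, beside 0.36 over all probes well above background on both arrays. Of the 54 member probes with such a signal on either array or both, 1 was at least 2-fold higher in eSAS (HLA-DQA1), beside 1.83% of 28439 probes on the array, and 0 were at least 2-fold lower, beside 1.97%. At 1.5-fold, 4 member probes were higher, from HLA-DQA1, MICA and MICB, beside 4.43% of all probes, and 1 was lower, from HLA-DMB, beside 6.12%. In bulk RNA, fewer cells that express a gene and less RNA per cell cannot be told apart.

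**Figure D1:**
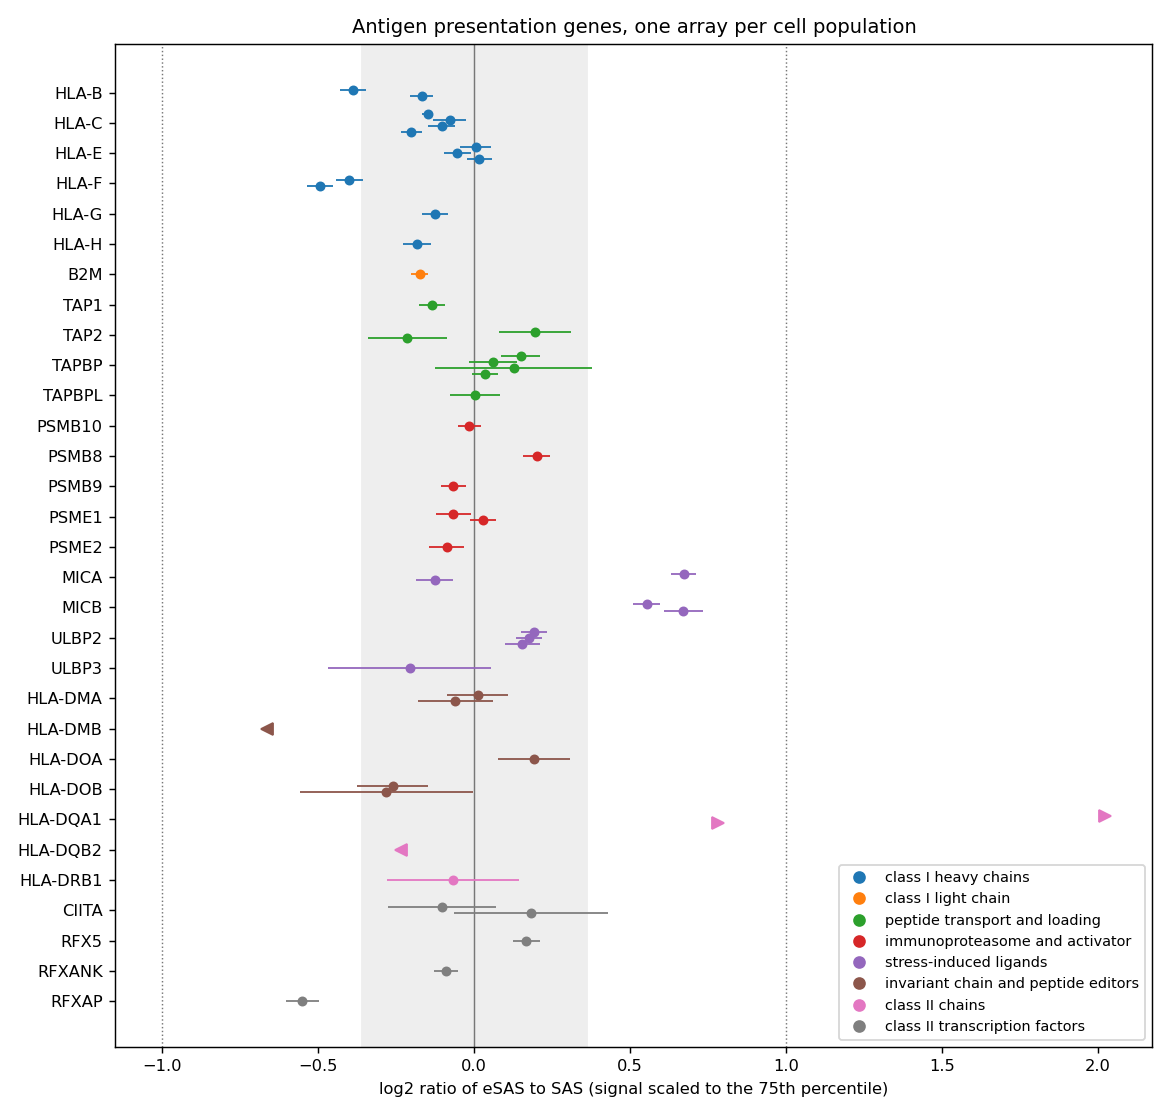
Log2 ratio of eSAS to SAS (horizontal axis) for each probe shown, all well above background on at least 1 array. Points are probes, and bars are the SD of replicate spots, a probe's own where it had them and otherwise of like brightness. Triangles are lower bounds where only 1 array was well above background. The grey band is 1 SD (0.36) of all probes and dotted lines mark 2-fold. Class I heavy chains lie mostly left of 0, MICA, MICB and 2 HLA-DQA1 probes lie on the right, and RFXAP and HLA-DMB on the left. Background correction by a normal-exponential model (normexp) fitted on all spots moved the median of all probes to 0.53 and put MICA and the brighter MICB probe below it.

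The class I heavy chains, which carry the peptide groove, were slightly lower in eSAS as a group. Of 15 of their probes well above background on both arrays, 13 had a log2 ratio below 0, beside 50.8% of 26659 probes. Their median was −0.15 and their range −0.50 to 0.02. When each value was taken relative to the median of all probes, 12 to 14 of these probes were lower in eSAS under the other scalings and background corrections. Many of these probes measure related sequences, so the 15 values are not independent of each other.

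HLA-F, a non-classical heavy chain found mainly inside the cell, was the lowest of them. Its probe at chr6:29801300-29801941 in hg18, the genome build of the array's annotation, had a signal of 2546 in SAS and 1740 in eSAS, a log2 ratio of −0.50 with an SD of 0.041 between spots. The second HLA-F probe had 1311 in SAS and 957 in eSAS, a log2 ratio of −0.40. Both probes were thus lower in eSAS, by 1.41-fold and 1.32-fold.

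HLA-B and HLA-C are classical heavy chains that present to cytotoxic T cells. For HLA-B, the log2 ratio was −0.39 on a probe with signals of 1460 and 1075 in SAS and eSAS, and −0.17 on a probe with 7079 and 6063. HLA-C was labelled on 4 probes with log2 ratios from −0.20 to −0.08. The brightest had 10 spots, from 28685 to 31024 with a median of 29793 in SAS and from 25099 to 27311 with a median of 25717 in eSAS. Its spots did not overlap between the arrays, and its log2 ratio was −0.15 with an SD of 0.017. A difference of this size was common at this brightness: over 1587 like probes the median log2 ratio was −0.02 and the SD 0.18. The share of all replicated probes without overlap is not given here. The HLA-C probe with 10 spots lies on the reverse strand, 1075 bases from a HLA-B probe and 85096 bases from a probe in HLA-C. Another probe labelled HLA-C overlaps a HLA-B probe. The letters of the probes were not analysed here, so signal of these 2 probes cannot be assigned to HLA-B or HLA-C.

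HLA-E, which displays leader peptides of other class I chains to NK cells, differed least of the heavy chains. Its 3 probes had log2 ratios of 0.005, −0.05 and 0.02, each within 2 SDs of replicate spots from 0. HLA-G, known from the placenta, had a probe with 12460 in SAS and 10995 in eSAS, a log2 ratio of −0.13, while its other 2 probes were not well above background on either array. The probes labelled HLA-G therefore disagreed on whether the gene was detected. HLA-H, a class I pseudogene, had a log2 ratio of −0.18 with signals of 892 and 757.

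B2M, the light chain shared by all class I molecules, was 1.13-fold lower in eSAS. Its 10 spots ran from 33219 to 37310 in SAS, with a median of 35341, and from 28131 to 31404 in eSAS, with a median of 30172. The spots did not overlap between the arrays, and the log2 ratio was −0.17 with an SD of 0.027. A difference of this size was common among bright probes: over 1443 probes of like brightness the median log2 ratio was −0.02 and the SD 0.18.

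**Figure D2:**
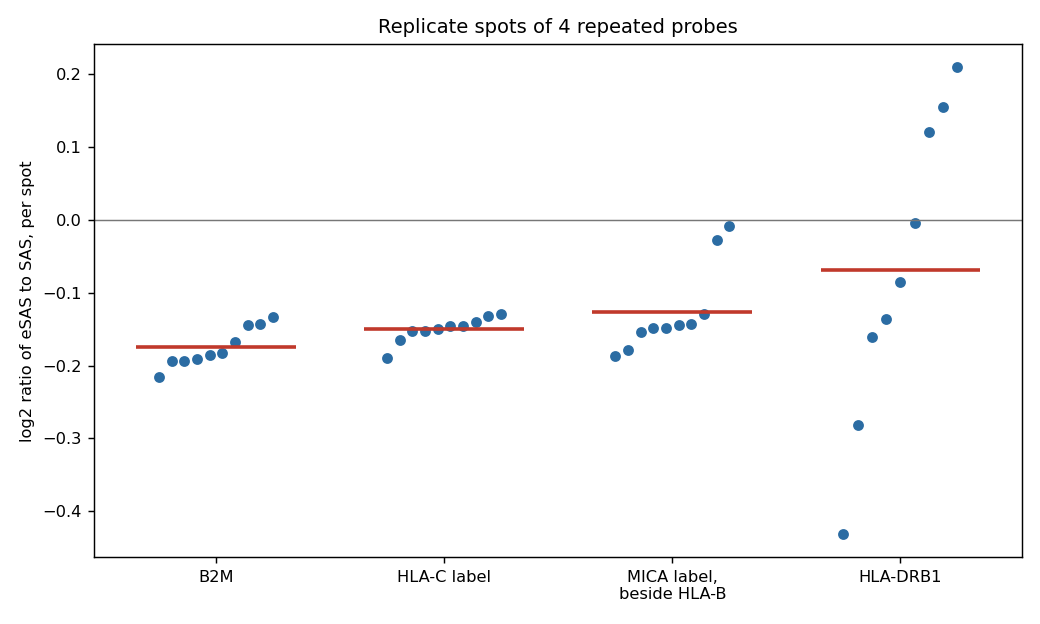
Log2 ratio of eSAS to SAS (vertical axis) at each spot of 4 member probes printed several times, in order of value and red lines are the means. All 10 spots of B2M, of the HLA-C-labelled probe and of the MICA-labelled probe beside HLA-B lie below 0, and the 9 spots of HLA-DRB1 lie on both sides of 0. Relative to the median of all probes, HLA-DRB1 turned higher under the background model fitted on all spots, and the other 3 stayed lower.

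Promoter sequences of RefSeq, from 250 bases before to 50 bases after the start in GRCh38.p14, were on hand for 35 of the 44 genes, in 45 promoters, and are shown for the genes whose values stand out. Among the genes without an entry were CIITA, HLA-DPB2, HLA-DRA, HLA-DRB3, HLA-DRB4, HLA-DRB6, HLA-E and HLA-H. Searched on both strands were ATTGG, the core of the Y box that class I and class II promoters share and NF-Y binds, TTTCNNTTT, letters of interferon response elements, TTCNNNGAA, letters of gamma activated sites, and GAANNTTC, letters of heat shock elements, which were chosen after the values were seen. ATTGG was in 23 of the 45 promoters and in 34.6% of 35116 promoters in the table. TTTCNNTTT was in 12 and in 10.5%, TTCNNNGAA in 4 and in 7.66%, and GAANNTTC in 7 and in 6.77%. These are matches of letters, not tested sites.

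The promoters of the light chain and of the lowest heavy chain follow, B2M at chr15:44711267-44711566 and HLA-F at chr6:29723184-29723483, both on the forward strand and 5′ to 3′. Capitals mark the letters found. In B2M these are 2 overlapping interferon matches on the reverse strand, 143 and 137 bases before the start, and a Y box core 49 bases before it. In HLA-F they are an interferon match 156 bases before the start and Y box cores 82 and 57 bases before it, the last on the reverse strand.
B2M: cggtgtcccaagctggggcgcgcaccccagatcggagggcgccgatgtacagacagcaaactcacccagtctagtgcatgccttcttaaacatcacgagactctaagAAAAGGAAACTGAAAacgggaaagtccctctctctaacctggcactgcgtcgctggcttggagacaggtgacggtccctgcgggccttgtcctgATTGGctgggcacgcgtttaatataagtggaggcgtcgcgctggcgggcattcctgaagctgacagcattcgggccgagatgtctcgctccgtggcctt
HLA-F: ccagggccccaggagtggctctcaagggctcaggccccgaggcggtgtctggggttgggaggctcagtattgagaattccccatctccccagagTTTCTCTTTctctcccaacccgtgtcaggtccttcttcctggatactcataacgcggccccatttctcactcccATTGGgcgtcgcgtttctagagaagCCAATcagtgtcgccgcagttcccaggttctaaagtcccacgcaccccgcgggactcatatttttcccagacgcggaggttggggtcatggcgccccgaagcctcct

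Peptide transport and loading genes showed no common direction. TAP1, a subunit of the transporter, had signals of 9475 in SAS and 8308 in eSAS, a log2 ratio of −0.14. The 2 probes of its partner TAP2 gave 0.19 and −0.21, with SDs of replicate spots of 0.115 and 0.127. The 4 probes of TAPBP lay between 0.03 and 0.15, and TAPBPL, a tapasin relative that edits peptides, was at 0.003 with signals of 295 and 285. Over the 8 probes of these genes the median was 0.05.

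Subunits of the immunoproteasome, which replace those of the standard proteasome under interferon gamma, also stayed close to 0. PSMB8 had 3160 in SAS and 3496 in eSAS, a log2 ratio of 0.20, and was the only one of the 5 genes in this group with all its probes above 0. PSMB9 was at −0.07, PSMB10 at −0.02 and PSME2, an activator subunit, at −0.09. The 2 probes of PSME1, the other activator subunit, were at −0.07 and 0.03. All 6 probes lay within 1.5-fold, and their median was −0.04.

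The wider pathway was described with lists of genes from general knowledge. Of 36 probes in 20 genes of interferon gamma signalling and the factors of these promoters, 0 were 2-fold apart in either direction. Over all probes on the array, 1.83% were at least 2-fold higher in eSAS and 1.97% at least 2-fold lower. A count of 0 in so short a list is therefore not unusual. The median log2 ratio of the 36 probes was −0.04. IRF1, a transcription factor induced by interferon gamma, was at −0.06, and the receptor chains IFNGR1 and IFNGR2 at −0.10 and −0.15. NLRC5, the activator of class I genes, was at 0.22 on its only probe well above background. That probe was faint, with 77.7 in SAS and 87.0 in eSAS, and the other NLRC5 probes were dim on both arrays. Of 42 probes in 23 genes of peptide supply and class I folding, again 0 were 2-fold apart, beside the same shares, and the median was −0.06. Calreticulin (CALR), a chaperone of class I folding, was at −0.02 and PDIA3, its partner, between −0.15 and −0.06.

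The stress-induced ligands held the 3 highest log2 ratios of the members with signal on both arrays. The probe at chr6:31488154-31488213 in MICA had a signal of 1601 in SAS and 2457 in eSAS. The probes in MICB, its close relative, had 3996 and 5644 at chr6:31586812-31586871 and 272 and 417 at chr6:31583164-31583223. All 3 were thus brighter in eSAS. Their log2 ratios were 0.67, 0.55 and 0.67, with SDs of replicate spots of 0.041, 0.043 and 0.062, or 1.59-fold, 1.47-fold and 1.59-fold. Among 5490 probes of like brightness to that in MICA, the SD of the log2 ratio was 0.26.

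Under most other scalings and corrections these 3 values stayed between 0.50 and 0.71. Under the background model fitted on all spots, which moved the median of all probes to 0.53, they were 0.31, 0.07 and 1.37, so that MICA and the brighter MICB probe were then below the median of all probes. With 26 spots of marked local background left out of that model, they were 0.64, 0.55 and 0.58.

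A second probe labelled MICA had 10 spots and a log2 ratio of −0.13 with an SD of 0.060. Its signals ran from 707 to 794 in SAS, with a median of 771, and from 617 to 741 in eSAS, with a median of 656. The array annotation puts this probe on the reverse strand, 790 bases from a HLA-B probe and 56165 bases from the other MICA probe, which lies on the forward strand. Its log2 ratio was below 0, like those of the 4 probes labelled HLA-B or HLA-C closest to it, which ran from −0.39 to −0.10, and opposite in sign to that of the probe within MICA. A log2 ratio below 0 was common, at 50.8% of 26659 probes. The letters of the probe were not analysed here, so its signal cannot be assigned to MICA or HLA-B. The probe was counted with the members because the rule goes by label.

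**Figure D3:**
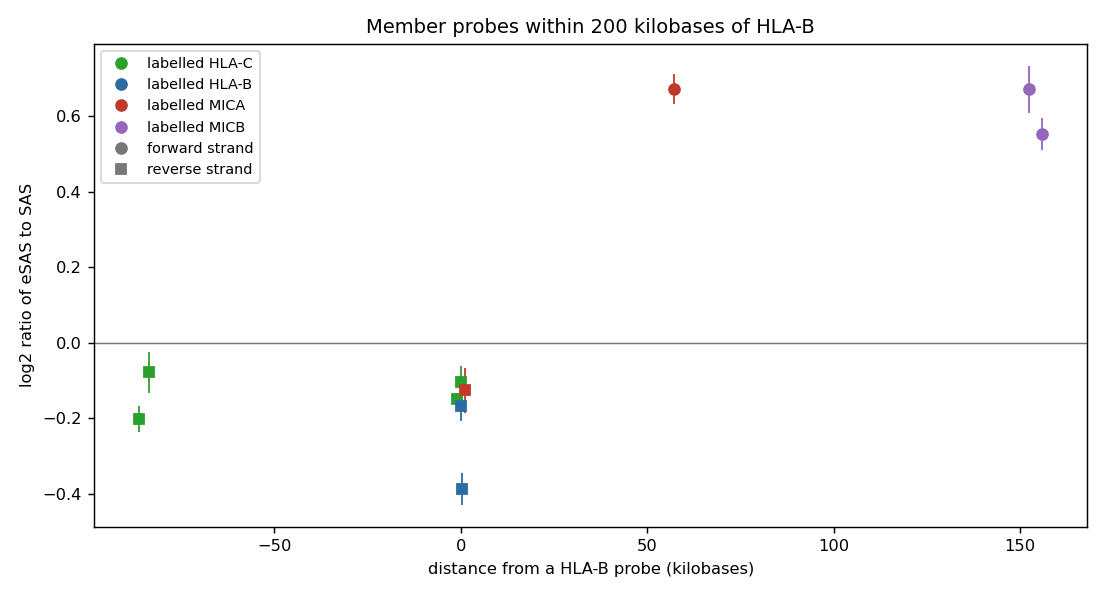
Log2 ratio of eSAS to SAS (vertical axis) of member probes against their distance in kilobases from a HLA-B probe (horizontal axis). Bars are the SD of replicate spots, a probe's own where it had them and otherwise of like brightness. Squares are reverse-strand probes, including the MICA-labelled one beside HLA-B, and all lie below 0, while the 3 forward-strand probes in MICA and MICB lie at 0.55 to 0.67. Relative to all probes, MICA and the brighter MICB probe turned below 0 under the background model fitted on all spots.

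ULBP2, another NKG2D ligand, had 3 probes with log2 ratios of 0.19, 0.18 and 0.15, whose signals went from 1057, 1217 and 430 in SAS to 1162, 1324 and 461 in eSAS. ULBP3 was dim, with 26.8 and 22.3 and a log2 ratio of −0.21 with an SD of 0.262, so no difference could be seen at this signal. ULBP1 was not well above background on either array. Outside the rule, RAET1E, which encodes a further ligand of NKG2D, had 37.4 in SAS and 95.0 in eSAS on its probe, 2.63-fold higher. It was the only one of 24 probes in the list of class I-like molecules and NK cell ligands past 2-fold. Over all probes on the array, 1.83% were at least 2-fold higher in eSAS and 1.97% at least 2-fold lower. The list's median was 0.03, and its values under other corrections were not computed. The proteases ADAM10 and ADAM17, which can shed MICA and MICB from the surface, had log2 ratios of −0.03 and, on 3 probes, 0.005 to 0.08.

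**Figure D4:**
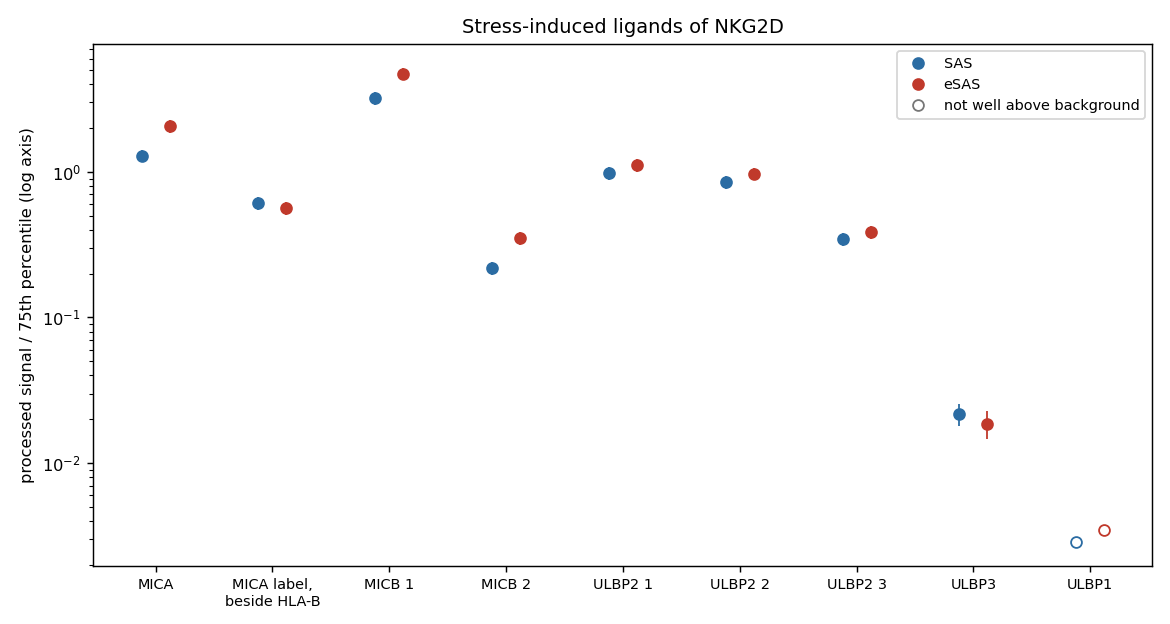
Processed signal divided by the 75th percentile of its array (vertical log axis) for each probe labelled as a stress-induced ligand, SAS in blue and eSAS in red, with the scanner software's signal error as bars where they exceed the point. MICA and both MICB probes are higher in eSAS, the 3 ULBP2 probes slightly so, and ULBP1 is not well above background. Relative to all probes, MICA and the brighter MICB probe turned lower under the background model fitted on all spots.

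The promoters of MICA, at chr6:31403345-31403644, and MICB, at chr6:31497895-31498194, are shown because the genes differed in the same direction and are known targets of heat shock factor. Capitals mark a GAANNTTC match, read the same on both strands, 135 bases before the start of MICA and 139 before that of MICB, and Y box cores at 93 and 64 bases in MICA and at 97 in MICB. With the sequences offset by 4 bases and no gaps, 196 of 296 bases were identical (66.2%). GAANNTTC was also in promoters of HLA-DQA1, HLA-DQA2, HLA-DQB1, HLA-DQB2 and HLA-G, and a link of these letters to the values was not tested.
MICA: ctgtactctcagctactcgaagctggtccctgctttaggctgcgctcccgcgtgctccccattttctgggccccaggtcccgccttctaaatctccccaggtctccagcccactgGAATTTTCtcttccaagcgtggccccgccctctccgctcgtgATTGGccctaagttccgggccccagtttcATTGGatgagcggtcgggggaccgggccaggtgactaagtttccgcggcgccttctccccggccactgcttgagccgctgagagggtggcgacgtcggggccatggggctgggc
MICB: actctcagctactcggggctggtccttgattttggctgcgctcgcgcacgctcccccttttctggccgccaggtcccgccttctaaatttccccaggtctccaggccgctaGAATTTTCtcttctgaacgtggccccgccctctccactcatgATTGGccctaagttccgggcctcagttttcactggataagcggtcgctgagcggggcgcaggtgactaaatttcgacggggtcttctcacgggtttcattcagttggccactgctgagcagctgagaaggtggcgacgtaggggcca

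Class II chains were mostly dark in both populations. Of 26 probes for 13 genes, 21 were not well above background on either array, and 9 of the genes had no other probe. HLA-DRA, the alpha chain of all HLA-DR molecules, had 3.07 in SAS and 3.53 in eSAS, and CD74, the invariant chain, 3.12 and 3.54. Over the 32 dim member probes of all classes, signals ran from 2.64 to 14.9 in SAS and from 3.14 to 18.1 in eSAS. Leukocyte markers were likewise dim for 8 of 13 genes, among them PTPRC, CD3D, CD3E, MS4A1, ITGAM, ITGAX and LYZ. The other 5 (CD14, CD68, CD79A, CD83 and CSF1R) were well above background on both arrays, and the summed signal of the list was 4472 in SAS and 4557 in eSAS. Their part in the class II signals was not tested.

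HLA-DQA1, the alpha chain of HLA-DQ, was the exception in eSAS. Its probe at chr6:32718815-32718874 had 2.94 in SAS, not well above background, and 50.2 in eSAS, and a second probe 183 bases away had 2.74 and 21.3. Against the lowest signal well above background in SAS, these were at least 4.07-fold and at least 1.72-fold higher in eSAS. The median pixels of the first spot were 51.5 in SAS and 92.5 in eSAS, over local backgrounds of 30 and 25, and the software marked neither spot as uneven. The other 2 HLA-DQA1 probes, to which the array gives no position, were dim on both arrays, with 9.45 and 14.9 in SAS and 3.39 and 11.4 in eSAS. Without background correction the first 2 probes had log2 ratios of 0.79 and 0.35.

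HLA-DRB1 had the only class II chain probe well above background on both arrays. Over 9 spots its signals ran from 84.3 to 127 in SAS, with a median of 106, and from 78.5 to 133 in eSAS, with a median of 94.0. The spots overlapped, and the log2 ratio of −0.07 was smaller than its SD of 0.212. The HLA-DRB genes are closely alike in sequence, so this signal cannot be assigned to HLA-DRB1 alone. The probe of HLA-DQB2 was well above background in SAS alone, with 25.3 against 20.7 in eSAS, a log2 ratio of −0.23 that was smaller than its SD of 0.262. A probe labelled HLA-DQB1 lay 1078 bases from it and 97586 bases from another HLA-DQB1 probe. That probe had 14.6 in SAS and 11.7 in eSAS, and gave no fold above the limit of detection.

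**Figure D5:**
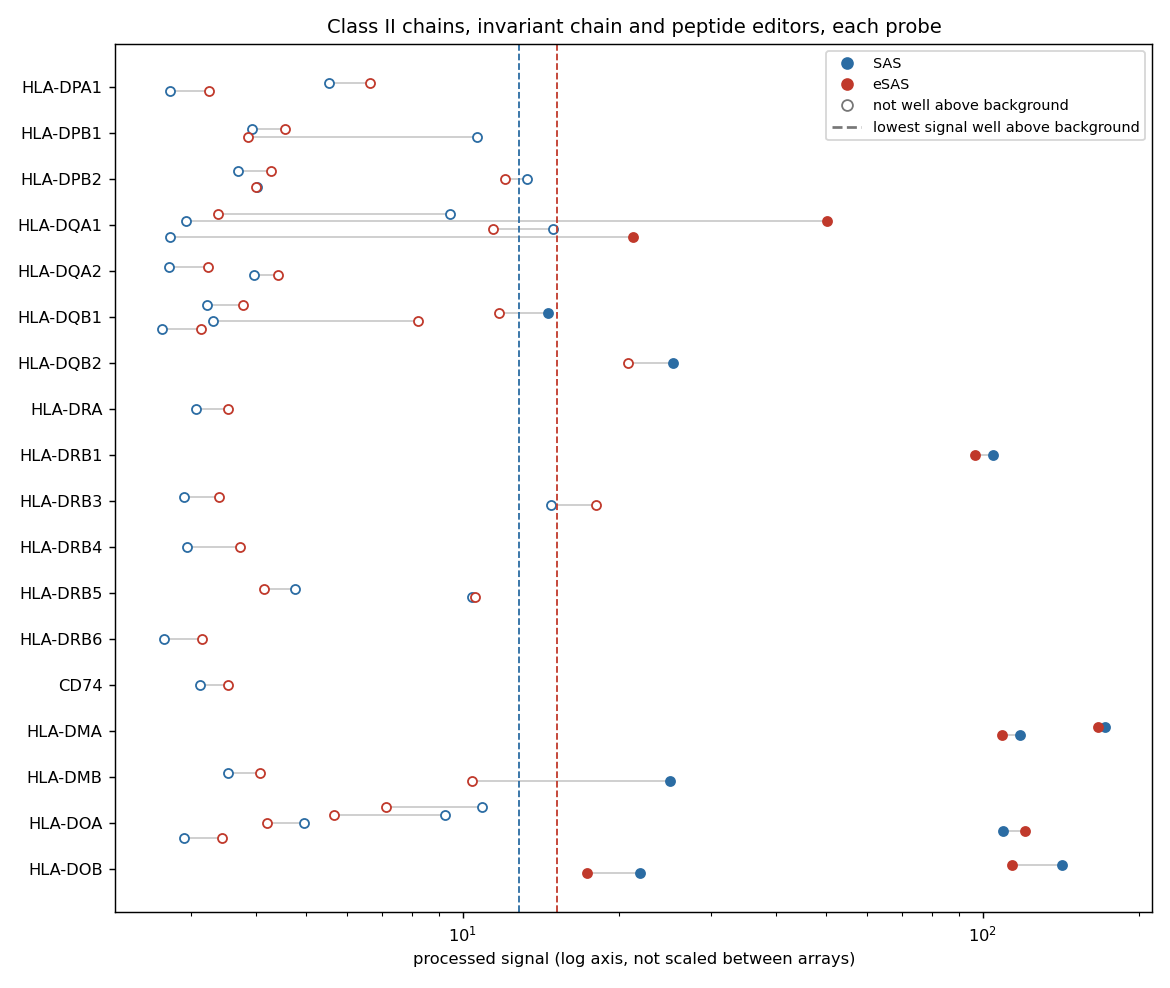
Processed signal (horizontal log axis, not scaled between arrays) of each probe for class II chains, CD74 and peptide editors, SAS in blue and eSAS in red, joined by lines. Open points are not well above background and dashed lines are the lowest signals that were, 12.8 in SAS and 15.2 in eSAS. Most chains and CD74 lie left of these lines on both arrays, while 2 HLA-DQA1 probes are filled in eSAS alone.

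The HLA-DQA1 promoter, at chr6:32637156-32637455 on the forward strand, is shown for that difference. Capitals mark a GAANNTTC match 229 bases before the start that overlaps a Y box core on the reverse strand at 222, a TTCNNNGAA match at 200 and a Y box core at 68.
HLA-DQA1: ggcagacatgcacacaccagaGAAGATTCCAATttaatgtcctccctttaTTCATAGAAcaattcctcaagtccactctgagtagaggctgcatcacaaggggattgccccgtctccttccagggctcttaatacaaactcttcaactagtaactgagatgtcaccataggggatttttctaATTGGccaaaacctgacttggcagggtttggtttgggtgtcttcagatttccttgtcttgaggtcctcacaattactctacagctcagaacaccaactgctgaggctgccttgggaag

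The editors that exchange class II peptides in endosomes were detected, although most class II chains were not. HLA-DMA had log2 ratios of 0.01 and −0.06 on 2 probes, with 172 and 118 in SAS and 167 and 109 in eSAS. A probe of its partner HLA-DMB had 25.0 in SAS and 10.4, not well above background, in eSAS, at least 1.58-fold lower. Without background correction its log2 ratio was −0.10, which is not past 1.5-fold, and the other HLA-DMB probe was dim on both arrays. HLA-DOB, a chain of the inhibitor of HLA-DM, was at −0.26 (142 in SAS and 114 in eSAS) and −0.28 (21.9 and 17.4). The SDs of replicate spots were 0.115 and 0.278, and without background correction the log2 ratios were −0.15 and 0.009. HLA-DOA, the partner of HLA-DOB, was at 0.19 on the 1 of 5 probes that was well above background.

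Of the factors that switch on class II genes, RFXAP differed most. This subunit of the RFX complex, which binds the X box of class II promoters, had 646 in SAS and 425 in eSAS on its probe, a log2 ratio of −0.55 with an SD of 0.052, 1.47-fold lower. Under the background model fitted on all spots it was 0.35, below the median of 0.53 over all probes. The other subunits, RFX5 and RFXANK, were at 0.17 and −0.09. CIITA, the master regulator of class II genes, was faint, with 65.1 and 58.3 on a probe and 29.2 and 31.9 on another, log2 ratios of −0.10 and 0.18 that were close to or below their SDs of 0.173 and 0.247, and 2 further probes were dim.

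Probes for genes of endosomal processing were lower on balance, although probes of the same gene are not independent. Of 15 probes in 11 genes, 0 were 2-fold apart in either direction, beside 1.83% higher and 1.97% lower over all probes. At 1.5-fold, 3 were lower, from LAMP2 and CTSH, beside 6.12% of all probes. The median log2 ratio over probes was −0.37, with CTSB, LAMP1 and LAMP2 each counted on more than 1 probe. LAMP2, a lysosomal membrane protein, was lower on both its probes, 1.64-fold and 1.72-fold, and the protease CTSH was 1.53-fold lower. The protease CTSB had log2 ratios of −0.51, −0.37 and −0.49. CTSS, the protease that trims the invariant chain, was at 0.26 and IFI30, a reductase induced by interferon gamma, at −0.15. CTSL1 was at −0.41, LAMP1 at −0.40 and −0.19, and LGMN at −0.08. CTSD was at 0.16, and the faint MARCH1 and MARCH8 at 0.48 and 0.06. Their values under other corrections were not computed.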

How the data were processed

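Total RNA of SAS and eSAS cells was labelled with Cy3 and hybridized to 1 Agilent array each. The authors deposited scanner output with linear intensity values, made with Agilent Feature Extraction 10.7.3.1 per the submitters' processing notes. Its processed signal was corrected for background, not scaled between arrays, and equal to the authors' table of values at all 45015 spots. Gene labels and hg18 positions are those of the array; RefSeq accessions matched 67 of 86 member probes, with 0 other symbols.

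Control spots and spots marked as non-uniform or population outliers, among them 1 HLA-DRB1 spot, were removed. Each array's log2 signals were centred on their 75th percentile and replicate spots averaged. A probe was well above background where over 50 percent of its spots were. Where 1 array was dim, the fold is a lower bound against the higher of the probe's own signal and the lowest signal well above background, after scaling. Counting was tested on simulated data. The number of arrays, 1 per group, allowed no test and limits the precision.

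Alternatives were other scalings (none, median, quantile), normexp (limma 3.58.1, R 4.3.3, offset 50), no background correction, other filters and leaving out rows 450 to 510, which held 15 member spots. Results of a few single genes are not given here, although counts include them. Members and gene lists were chosen with earlier results of these data known.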

Additional observations from a re-analysis of the deposited data

How the results depend on the processing

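The count of member probes at least 2-fold higher in eSAS was 1. It became 18 with normexp on mean pixels and 18 with normexp on median pixels, 0 without background correction, 0 when probes had to be well above background on both arrays, 3 with no filter on dim probes and 4 at 1.5-fold. It was 0 with normexp after leaving out 26 spots with a marked local background, an alternative chosen after seeing the data. The count at least 2-fold lower was 0 and became 4 with no filter and 1 at 1.5-fold. The median log2 ratio of members, −0.07, became 0.28 and 0.30 with normexp on mean and on median pixels. Under these models the median of all probes was 0.53 and 39.6% of all probes were at least 2-fold higher in eSAS, so the member median lay below it by 0.25 and 0.23. The cause was not tested, and with the 26 spots left out of the model the member median was −0.06. No other alternative changed these counts by over 1.5 times or moved the median by more than 0.081, the pooled SD of replicate spots. Sensitivity to a left-out array could not be computed. No paired analysis was possible because there was 1 array per condition. Dim probes, among them those of HLA-DQA1, HLA-DMB, ULBP3 and HLA-DQB2, have the least certain ratios.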

Other observations

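Costimulatory and checkpoint ligands, which act beside antigen presentation, were measured with 15 probes well above background in 10 genes. Of these, 1 was at least 2-fold higher in eSAS and 0 were at least 2-fold lower, beside 1.83% and 1.97% of all probes. At 1.5-fold, 2 were higher and 2 lower, beside 4.43% and 6.12%, and the median log2 ratio was −0.16. ICAM1, an adhesion molecule that holds T cells to their targets, had a signal of 880 in SAS and 1491 in eSAS, 1.76-fold higher. CD274, which encodes the checkpoint ligand PD-L1, had 1321 and 1712 on a probe and 272 and 338 on another, 1.35-fold and 1.29-fold higher. LGALS9 was 1.65-fold lower on its brighter probe and 1.16-fold lower on the other. CD86, a ligand of CD28, gave opposite directions on its 2 probes, both faint. The list's only probe past 2-fold was that with 2.87 in SAS, not well above background, and 25.4 in eSAS, at least 2.06-fold higher. The other CD86 probe had 37.0 and 19.9, 1.79-fold lower. CD40 was 1.44-fold lower, from 53.0 to 35.4, and CD58, a ligand of CD2, was at a log2 ratio of 0.05.

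Of 8 fibroblast marker genes, 5 were not well above background, and LUM, which encodes lumican, had 3.21 in SAS and 29.6 in eSAS, at least 2.40-fold higher. COL1A1 was well above background in SAS alone, with 15.1 against 4.90, and THY1 had a log2 ratio of −0.01. The summed signal of the fibroblast list was 2742 in SAS and 2640 in eSAS, and that of 4 endothelial marker genes was 117 and 103.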
